A study of Cryptomeria japonica with 72 samples.

Results

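The bases of Cryptomeria japonica cuttings at 1 day post insertion into soil (1 dpi) were compared with bases at 3 hours post insertion (3 hpi). The comparison used 6 of the 72 arrays of the series, the 3 arrays labelled base at 3 hpi and the 3 labelled base at 1 dpi, and 12497 of the 19304 targets on the array. Targets were kept when no spot was flagged as non-uniform, every spot was well above background and the mean signal was above 10 on each of these 6 arrays. All cuttings came from 1 clone (Tsukuba 1, a plus tree), received no hormone treatment named in the sources used here and stood in Kanuma soil in an irrigated greenhouse without environmental control, so the groups differ by time alone as far as the labels go. A base sample is the lowest part of the stem, which was underground, and a middle sample is a part of the same length aboveground. The 3 arrays of a group are separate cuttings, and since sampling destroyed a cutting, no cutting was read at both times.

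When a shoot is cut from its tree, the wound and the loss of water supply set off calcium signals, jasmonate synthesis and a first wave of transcription factors within hours. Adventitious roots arise later, from cells near the cut end that divide and form root primordia, with auxin as the main hormone and sugars drawn to the base. The step from 3 hpi to 1 dpi falls between these phases and addresses which early changes passed and which state of the base followed them.

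Levels are log2 signals after each array's 75th percentile was subtracted, so that 0 equals that percentile and 1 is a doubling. Levels compare arrays for 1 target and not targets with each other. Rises and falls are targets with an adjusted p below 0.05 in limma (Benjamini-Hochberg, over all targets tested) that also changed by 1 log2 unit or more, and such targets are termed called. The arrays of a target were apart when the 3 of one time all exceeded the 3 of the other. Gene names are those of the best Arabidopsis hit of a target, and the roles given are those known in Arabidopsis. Genome positions of the targets were not used here. In bulk tissue, fewer cells of a type and less RNA per cell cannot be told apart.

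Of the arrays used, 76.4% to 80.5% of spots at 3 hpi and 74.5% to 80.0% at 1 dpi were well above background, and no spot was saturated. Slides 2 and 3 each held 1 array of either time. The remaining arrays, replicate 2 of 3 hpi on slide 1 and replicate 2 of 1 dpi on slide 6, had no counterpart of the other time on their slide.

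One base at 3 hpi stood apart from the other two. Replicates 1 and 3 had r = 0.988 across the 12497 targets, whereas replicate 2 had r = 0.871 with replicate 1 and r = 0.881 with replicate 3 (genes are not independent replicates). Over 1 log2 unit separated replicate 2 from the mean of the others for 3032 targets, 1574 higher and 1458 lower, against 147 targets between replicates 1 and 3. At 1 dpi, replicate 1 differed by over 1 from replicate 2 for 1577 targets and from replicate 3 for 1566, and replicates 2 and 3 differed so for 461.

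Genes of the low-oxygen response were among those that set replicate 2 apart at 3 hpi. Pyruvate decarboxylase, the first enzyme of ethanol fermentation, was 2.95 in replicate 1, -0.82 in replicate 2 and 2.92 in replicate 3 (reCj19600). The haemoglobin GLB3 (reCj28760) was 2.71, 0.95 and 2.85, and a target with a hypoxia-responsive family hit (reCj34074) was 1.59, -2.94 and 1.69, in the same order. At 1 dpi these 3 targets were 1.59, 1.26 and 1.09, then 2.90, 2.04 and 1.80, then 3.03, 0.96 and 1.54. The base of replicate 2 was thus the low one in each, and the mean of the 1 dpi bases lay nearer to replicates 1 and 3. Replicate 2 was the high one for phenylalanine ammonia-lyase PAL1 (reCj33281), which opens phenylpropanoid synthesis, at 3.53, 7.27 and 3.42. It was also the high one for a thaumatin-like pathogenesis-related protein (reCj30314) at -2.33, 3.79 and -1.70. These targets were picked for their distance, after their values were seen, and carry no test. This array was also the only one of the 6 on slide 1, and the part of the slide was not tested. List counts that moved without replicate 2 are followed by the counts without it.

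**Figure D1:**
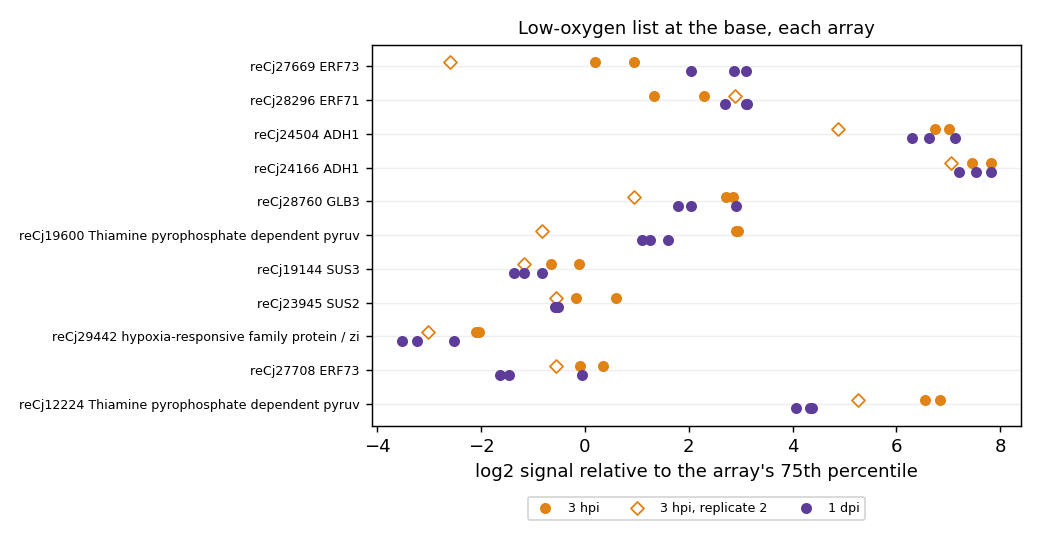
Log2 signal relative to the 75th percentile (x axis) of the 11 tested targets of the low-oxygen list (y axis) in each of the 6 arrays, with 3 hpi in orange, 1 dpi in purple and replicate 2 of 3 hpi as an open diamond. Replicate 2 was the lowest of the 3 hpi arrays for each target except ERF71 (reCj28296), where it was the highest at 2.90.

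Between 3 hpi and 1 dpi, 2050 of 12497 targets were called (16.4%). Of these, 975 rose (7.8%) and 1075 fell (8.6%). The rises had a median of 1.44 on the log2 scale (2.72-fold) and 237 of them reached 2, while the falls had a median of -1.62 (3.07-fold) and 329 of them reached that size. The median over all targets tested was 0.07. Of all targets tested, 42.1% had arrays apart, 22.3% higher and 19.8% lower at 1 dpi, and so did 891 of the rises and 1013 of the falls. Within slides, 972 of the 975 rises were higher and 1067 of the 1075 falls lower at 1 dpi on slide 2 as well as on slide 3. The arrays of these slides were among those that made the calls, so the choice of targets largely fixed this agreement. Without replicate 2 of 3 hpi, 1083 targets rose (8.67%) and 1055 fell (8.44%), and 782 of the 975 rises and 825 of the 1075 falls were among them.

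The same targets were followed through all times, of which only 3 hpi and 1 dpi had chosen them. Relative to the base at 0 hours post excision (0 hpe), the median of the falling targets was 1.05 ± 0.09 (SD, n = 3) at 0 hpi, 1.52 ± 0.11 at 3 hpi and -0.01 ± 0.10 at 1 dpi, and it was -0.11 ± 0.13 at 3 dpi and 0.17 ± 0.07 at 1 wpi. The falling targets were thus up in their median at 0 hpi already, and this median lay near the level from before the cut at 3 dpi and later. Single falling targets lay on both sides of that level. Of the 806 tested in base 3 dpi against 0 hpe, 193 were called lower and 143 higher. The median of the rising targets was -0.44 ± 0.04 at 0 hpi and -0.78 ± 0.09 at 3 hpi, then 0.66 ± 0.11 at 1 dpi, 0.73 ± 0.14 at 3 dpi and 0.51 ± 0.17 at 6 wpi. The rising targets were in their median below the starting level at 0 hpi and above it from 1 dpi on. In the middle, the same rising targets had a median of 0.36 ± 0.08 at 1 dpi, 0.30 ± 0.20 at 3 dpi and 0.27 ± 0.15 at 6 wpi. Over all targets tested, these medians at the base lay between -0.08 and 0.17.

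**Figure D2:**
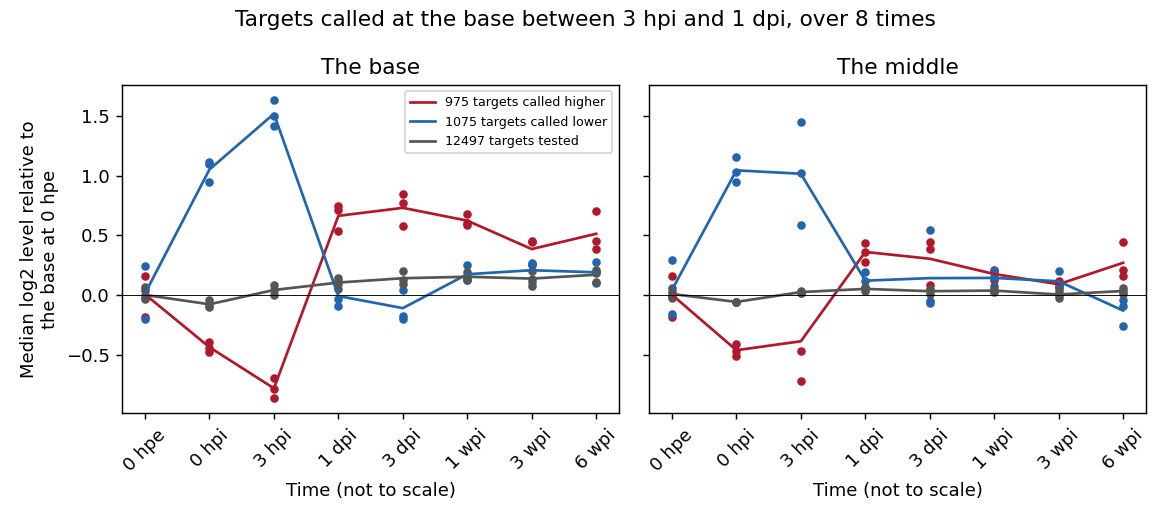
Median log2 level relative to the base at 0 hpe (y axis) of the 975 targets that rose, the 1075 that fell and all 12497 tested, at 8 times (x axis, not to scale) in the base (left) and the middle (right). Points are arrays and lines join the means of 3. The 3 hpi and 1 dpi values of the base chose the targets and the other times did not. Base medians of the rising targets stayed between 0.38 and 0.73 from 1 dpi on.

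The largest falls with an annotation are described first, and the largest among targets without one after them. AMT2, an ammonium transporter (reCj22883), was 5.35, 6.05 and 5.76 at 3 hpi and 0.83, 1.35 and 1.49 at 1 dpi, and the difference on the log2 scale was -4.50 (standard error 0.59). It had been -1.29 ± 0.22 (SD, n = 3) at 0 hpe and 4.73 ± 0.39 at 0 hpi, and was 0.55 ± 0.26 at 3 dpi, so at 1 dpi it was still 2.52 above 0 hpe (adjusted p = 0.000585). The dihydrofolate reductase hit reCj24181 also peaked at 3 hpi, and at 1 dpi its difference from 0 hpe was 0.49 (adjusted p = 0.467). It was 4.17, 4.51 and 4.29 at 3 hpi and -0.07, 0.58 and 0.74 at 1 dpi, and its levels at 0 hpe and 3 dpi were -0.07 ± 0.55 and -0.11 ± 0.13. Arabinogalactan protein AGP22 (reCj17377), a cell surface glycoprotein, was 5.03, 4.14 and 5.45 and then 0.51, 0.31 and 0.67, a difference of -4.37 (standard error 0.82, adjusted p = 0.000123).

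Polygalacturonase PG1 (reCj14728), which cuts pectin in the wall, took another course. It stood at 5.74 ± 0.58 at 0 hpe and was already lower at 3 hpi, at 1.90, 1.37 and 1.85, before it reached -3.71, -2.53 and -1.82 at 1 dpi (-4.39, standard error 0.92, adjusted p = 0.000404). It was -1.92 ± 1.63 at 1 wpi. The ankyrin repeat hit reCj20413 fell by 3.97 (standard error 0.49, adjusted p = 3.51e-07), from 3.07 ± 0.27 at 0 hpe and 2.21 ± 0.19 at 3 hpi to -1.76 ± 0.36 at 1 dpi. Both went below the level of the uncut stem at 1 dpi.

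The bHLH factor RGE1 (reCj22706), known from Arabidopsis endosperm, fell by 4.33 (standard error 0.60) from 1.01, 3.50 and 1.77 to -2.01, -2.93 and -1.78. Other falls of this size were a UDP-glycosyltransferase (reCj13201, -4.53), an auxin-responsive family protein (reCj28744, -4.43), a calcium-dependent lipid-binding protein (reCj26931, -4.22), a pyridoxal-dependent decarboxylase (reCj25496, -4.11), a PAR1 protein (reCj16813, -4.11) and an alpha/beta-hydrolase (reCj19027, -3.86). All 12 falls described kept their call without each array in turn. Among targets without an annotation here, reCj31964 fell by 6.68 from 6.08, 6.39 and 6.36 to -0.61, 0.09 and -0.70, and reCj16588 fell by 5.87.

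Of the largest rises with an annotation, the first was a GRAS factor. This target (reCj24218), of the family that holds SHORT-ROOT and SCARECROW, was -4.38, -1.79 and -5.07 at 3 hpi and 1.48, 2.12 and 1.96 at 1 dpi (standard error of the difference 0.69, adjusted p = 3.37e-07). Its base level was -2.53 ± 0.61 (SD, n = 3) at 0 hpe, 2.43 ± 0.08 at 3 dpi and 1.42 ± 0.58 at 6 wpi. A second target with the same hit (reCj18843) rose by 2.94 with arrays that overlapped, and signal shared between such near copies cannot be told apart on the array.

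An AP2/ERF factor (reCj23720) rose by 5.20 (standard error 0.73, adjusted p = 2.61e-06), from -3.15, -0.30 and -2.21 to 2.53, 3.69 and 3.71. A 2-oxoglutarate and iron dependent oxygenase (reCj26574) rose by 5.45 (standard error 1.27), from -2.12, 0.67 and -2.55 to 3.15, 4.45 and 4.75. In both targets replicate 2 was the highest base at 3 hpi, and the 1 dpi arrays were above all of them. At 6 wpi their base levels were 2.41 ± 0.50 and 4.39 ± 0.63.

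The cell wall invertase ATBFRUCT1 (reCj21279), which splits sucrose that reaches sink tissue, was -2.61, -2.19 and -2.85 at 3 hpi and 0.75, 2.06 and 2.47 at 1 dpi. Its difference was 4.31 (standard error 0.78, adjusted p = 7.90e-05), and its base level was 2.61 ± 0.77 at 3 dpi and 0.23 ± 1.29 at 6 wpi. Laccase LAC1 (reCj22559), an oxidase that couples lignin units, rose by 4.04 from -2.99, -0.08 and -3.27 to 0.96, 3.02 and 1.79. The O-methyltransferase OMT1 (reCj05905), of lignin and flavonoid synthesis, rose by 3.79 from -1.32, -1.98 and -2.27 to 1.66, 1.88 and 2.28. OMT1 was -0.17 ± 0.64 at 0 hpe and -0.96 ± 3.19 at 1 wpi, so its later bases were not above the start beyond their spread.

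The other named rises were an ARM repeat protein (reCj18713, 3.57), the endoglucanase GH9B1 (reCj22907, 3.63), a copper amine oxidase (reCj21219, 3.33), the receptor kinase RLK1 (reCj33076, 3.33), a leucine-rich repeat kinase (reCj30788, 3.31) and the ethylene-forming enzyme EFE (reCj25195, 3.47). The call of EFE rested on replicate 2, with an adjusted p of 0.0962 and a difference of 2.35 without that array. GH9B1 lost its call without any array other than replicate 2 of 3 hpi (adjusted p 0.0501 to 0.0966). RLK1 lost it without replicate 1 of 3 hpi (adjusted p 0.0730) or replicate 2 of 1 dpi (0.0555). Among targets without an annotation here, reCj26192 rose by 6.80 and reCj31474 by 6.67.

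**Figure D3:**
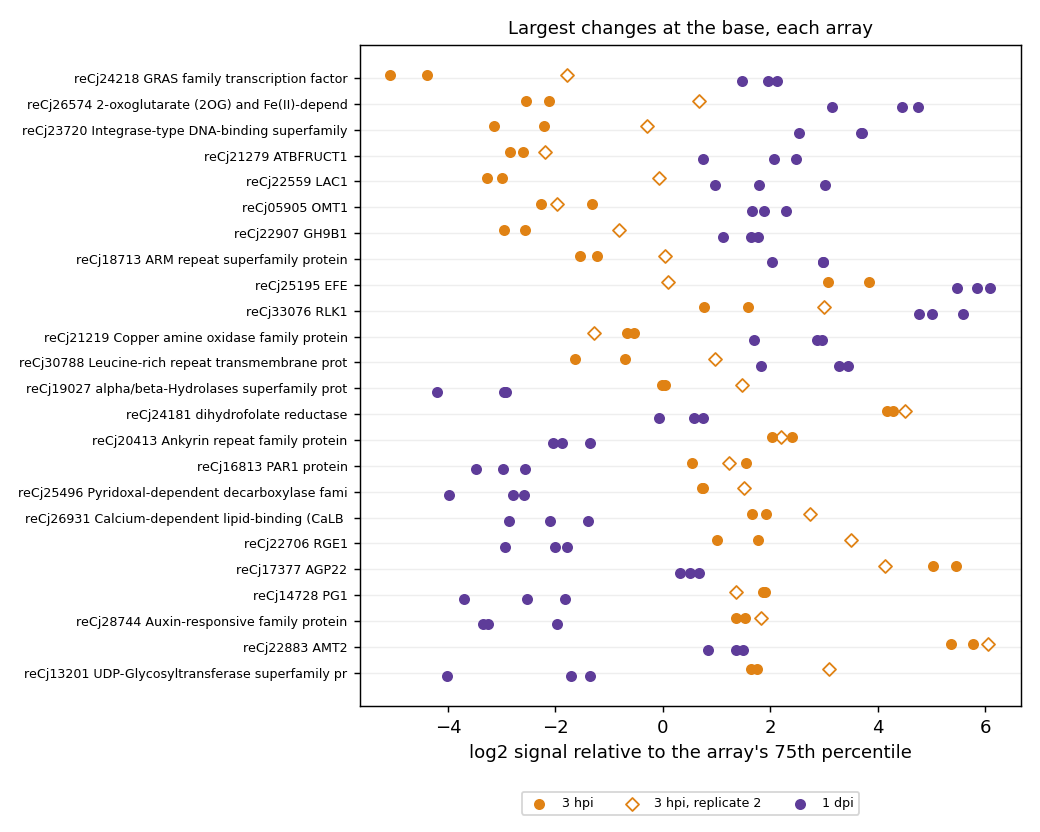
Log2 signal relative to the 75th percentile (x axis) in each of the 6 arrays for the 12 largest rises and 12 largest falls with an annotation whose arrays were apart (y axis). Orange marks 3 hpi, with replicate 2 as an open diamond, and purple marks 1 dpi. The 3 hpi and 1 dpi points do not overlap in any row, which the choice of targets required.

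Gene lists were drawn from the annotation, which covers 24.3% of the targets on the array and comes mostly from clusters formed on these same samples. Of the 4266 annotated targets tested, 310 rose (7.27%) and 633 fell (14.8%), and their median log2 difference was -0.06. List counts with all arrays are to be read against these shares, and no list was tested as a set. Shares over annotated targets were not computed without replicate 2 of 3 hpi or with the slide as a block. Over all targets tested, 8.67% rose and 8.44% fell without replicate 2.

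Of 39 tested calcium list members, 18 fell, all with arrays apart, none rose and 21 were not called, with a median of -1.04. Without replicate 2 of 3 hpi, 21 fell. Under the other scalings 15 to 18 fell. An EF-hand protein (reCj16779) was 2.70, 1.05 and 3.32 at 3 hpi and -1.38, -1.15 and -1.47 at 1 dpi, a difference of -3.69 (standard error 0.70). Calmodulin CAM5 (reCj28965), a calcium sensor that binds and activates other proteins, fell by 2.21 (standard error 0.39), from a mean of 3.82 to 1.62. Each 1 dpi base of both targets lay below each 3 hpi base.

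Targets of the jasmonate list changed in part. Of 19 tested, 4 fell and 1 rose, with a median of -0.45. Allene oxide synthase AOS (reCj21265), which makes the jasmonate precursor, was 5.22, 7.27 and 5.21 at 3 hpi and 2.95, 4.47 and 4.31 at 1 dpi, a difference of -1.99 (standard error 0.49). The TIFY domain protein TIFY8 (reCj23280) fell by 1.84, lipoxygenase LOX1 (reCj19631) by 1.94 and LOX3 (reCj11624) by 1.08, whereas LOX5 (reCj18807) rose by 2.69. Lipoxygenases and TIFY proteins entered the list by their annotated hit. A role of each in jasmonate synthesis or repression was not tested. LOX5 was 0.50, 0.67 and -0.14 and then 2.32, 2.66 and 4.13, and its call was lost without replicate 3 of 1 dpi (2.15, adjusted p 0.0781). The call of LOX3 was lost without 4 of the 6 arrays (adjusted p 0.0667 to 0.140). The 2 other AOS targets did not pass the test, and reCj23574 was 4.12, 7.48 and 4.41 at 3 hpi and 4.74, 4.64 and 5.27 at 1 dpi.

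Among transcription factors of stress responses, 4 of 12 tested WRKY targets fell and 1 rose (3 and 1 without replicate 2 of 3 hpi). WRKY51 (reCj26079) fell by 2.30 from 0.17, 0.25 and 0.34 to -2.02, -2.17 and -1.95, and WRKY53 (reCj27366) by 1.86. WRKY4 (reCj19418) rose by 1.00 and fell short of 1 with median scaling, with quantile and with normexp values, and without replicate 3 of 3 hpi or replicate 2 of 1 dpi. Of 29 AP2/ERF targets, 6 fell and 2 rose (8 and 1 without replicate 2). ERF12 (reCj25610), a repressor of the ethylene response family, fell by 3.52 from 2.22, 2.06 and 2.34 to -1.82, -0.85 and -1.27, and ERF-1 (reCj30717) fell by 3.28. ERF73 (reCj27669), an activator of low-oxygen genes, was 0.95, -2.60 and 0.20 and then 3.11, 2.87 and 2.05, and its rise of 3.16 lost its call without replicate 2 (2.10, adjusted p 0.0936). The NAC factor reCj19574 rose by 2.82 (standard error 0.53), from -1.42, -0.25 and -1.66 to 0.94, 2.42 and 1.77. It was the only one of 8 NAC targets called, and without replicate 2 of 3 hpi another fell. Of the other transcription factors, 4 of 17 MYB targets rose and 1 fell (4 and none without it), 4 of 19 bHLH targets rose and 3 fell, and 3 of 13 GRAS targets rose and 2 fell (4 and 2 without it).

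In the low-oxygen list, this ERF73 target was the only one of 11 members called. Alcohol dehydrogenase ADH1 (reCj24166), of ethanol fermentation, was 7.45, 7.04 and 7.82 at 3 hpi and 7.52, 7.82 and 7.20 at 1 dpi, and these values are given as an example chosen after they were seen. Without replicate 2 of 3 hpi, no member rose and 2 fell, and with the slide as a block none rose and 1 fell. In base 3 dpi against 0 hpe, 6 of 10 tested members were higher and 1 lower. Over all targets tested in that comparison, 16.3% were higher and 11.9% lower, and no share over annotated targets was computed for it.

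Of 15 tubulin targets, 6 fell and none rose (median -1.12), and 4 fell without replicate 2 of 3 hpi. Beta-tubulin TUB3 (reCj22413) was 3.62, 3.45 and 3.43 and then 1.96, 1.63 and 1.97, a difference of -1.64 (standard error 0.34). With the slide as a block, 2 tubulin targets fell. Of 44 cell cycle targets, 12 fell and none rose (median -0.86), and 11 fell without replicate 2 of 3 hpi and 7 with the slide as a block. The falls included genes that drive division and genes that restrain it. A cyclin E hit (reCj19100) was 1.36, 1.27 and 1.34 at 3 hpi and -0.94, -1.10 and -0.88 at 1 dpi. The replication clamp PCNA1 (reCj29743) fell by 2.39, and the CDK inhibitor hit SMR2-like (reCj25468) fell by 2.59 from 3.66, 3.77 and 3.21 to 0.62, 1.37 and 0.87. The summed level of the cell cycle targets was between 50.5 and 52.3 times the 75th percentile at 3 hpi and between 21.0 and 26.5 at 1 dpi. Bright targets such as reCj25468 weigh most in this sum. The median level of the list was -1.01, -0.85 and -0.88 at 3 hpi and -1.35, -1.43 and -1.42 at 1 dpi. The call of PCNA1 was lost without replicate 3 of 1 dpi (-1.56, adjusted p 0.122).

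Cell wall genes went both ways. Of 17 secondary wall targets, which mark xylem, 6 fell and 2 rose (median -1.25), and without replicate 2 of 3 hpi, 1 fell. The slide as a block left 2 falls and 1 rise. Laccase LAC17 (reCj22051), of lignin polymerization, was 1.82, 3.27 and 1.53 and then -1.70, -1.36 and -0.94, and its fall of 3.54 had an adjusted p of 0.0783 without replicate 2, and 0.0551 and 0.0506 without replicates 1 and 2 of 1 dpi. Laccases LAC1 and LAC12 (reCj16362, 1.67) rose, the latter with an adjusted p of 0.0817 without replicate 2 of 1 dpi. The summed level of the secondary wall list was 64.7, 150 and 57.2 times the 75th percentile at 3 hpi and 32.7, 34.3 and 40.1 at 1 dpi, highest in replicate 2, and the part of xylem content in these counts was not tested.

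Of 44 wall loosening targets, 8 fell and 8 rose, with a median of 0.00. Without replicate 2 of 3 hpi 8 fell and 6 rose, and with the slide as a block 7 fell and 4 rose. XTH24 (reCj28642), which cuts and joins xyloglucan, was 3.66, 2.46 and 3.52 and then -0.08, -0.09 and -0.49, a difference of -3.43 (standard error 0.66). The expansin-like EXLA1 (reCj26296) fell by 3.00, and expansin EXPA1 (reCj15270), which loosens walls during growth, rose by 1.95 with overlapping arrays and lost its call without 4 of the 6 arrays (adjusted p 0.122 to 0.208) and with quantile and normexp values. The pectin methylesterase inhibitor hit reCj21717 rose by 1.89. Of 32 phenylpropanoid targets, 6 fell and 6 rose (4 and 6 without replicate 2). The slide as a block gave 3 falls and 4 rises. PAL1 (reCj33281) fell by 3.67, and without replicate 2 of 3 hpi the difference was -2.40 (adjusted p 0.0777), while a cinnamyl alcohol dehydrogenase hit (reCj26732, CAD9) rose by 2.24 from 0.46, 0.83 and 0.42 to 2.94, 2.61 and 2.88.

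Of 22 sugar targets, 5 rose and 1 fell, against 3 and none with the slide as a block. Alpha-amylase AMY2 (reCj21821), which breaks starch, was 1.03, 0.55 and 0.67 and then 2.07, 2.52 and 2.36, a rise of 1.57 (standard error 0.23), and AMY3 (reCj18333) rose by 1.09, just short of 1 without replicate 1 of 3 hpi (0.98) or replicate 3 of 1 dpi (0.96). Ribosome biogenesis targets rose in 4 of 56 cases, none fell, and the median was 0.24. An rRNA methyltransferase hit (reCj20883) was -2.76, -3.28 and -2.95 and then -1.12, -1.30 and -1.24. Of 82 ribosomal protein targets 1 rose and none fell, of 14 citric acid cycle targets 1 rose and none fell, and of 10 clock and light targets 1 rose and 2 fell. Of 18 pathogenesis-related targets, 5 rose and 1 fell, with a median of 1.54, and a thaumatin-like protein (reCj21629) rose by 2.63 from -1.22, -0.91 and -0.96 to 0.89, 1.91 and 2.02.

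Resistance and recognition genes were mixed. Of 68 NB-ARC and TIR resistance targets, 4 rose and 9 fell, and 2 rose and 16 fell without replicate 2 of 3 hpi. Of 84 receptor kinase targets, 11 rose and 11 fell (15 and 14 without it). Of 128 targets tied to ubiquitin, which tags proteins for breakdown, 4 rose and 23 fell (4 and 19 without it). Of 58 heat shock targets 5 rose and 7 fell, against 2 and 7 without replicate 2 of 3 hpi and 2 and 4 with the slide as a block. Of 82 detoxification targets 10 rose and 15 fell (12 and 13 without replicate 2). The slide as a block gave 6 rises and 10 falls. Photosynthesis genes, which mark green tissue, fell in 2 of 14 cases and in 4 without replicate 2 of 3 hpi, with a median difference of -0.50. The median level of the list was 1.31, 0.31 and 0.85 in the 3 hpi arrays and -0.12, -0.36 and -0.20 in the 1 dpi arrays, while its summed level overlapped, between 21.3 and 42.5 at 3 hpi and between 31.7 and 49.5 at 1 dpi. Of 6 housekeeping targets, ACT7 (reCj13284) fell by 2.22 and UBQ10 (reCj26440) by 1.77, and ACT7 lost its call without any 1 of 5 of the 6 arrays (adjusted p 0.0511 to 0.175), replicate 2 of 3 hpi among them.

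**Figure D4:**
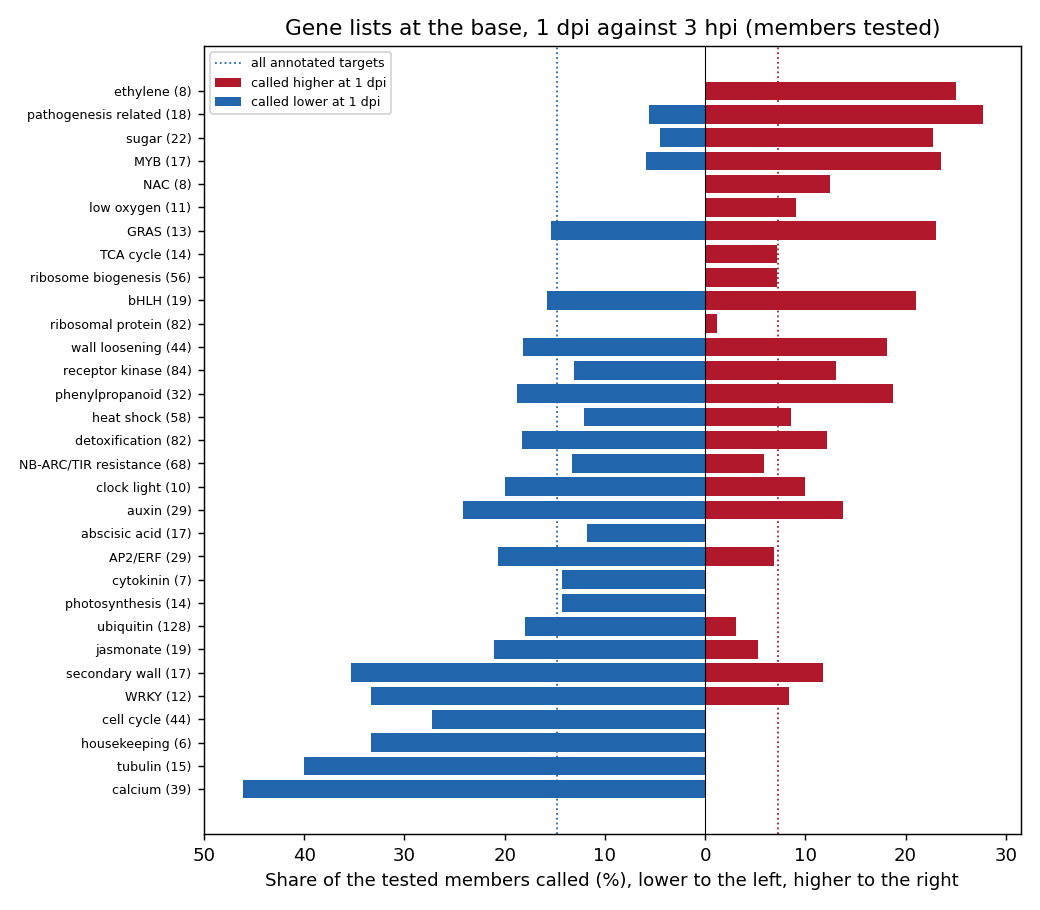
Share of the tested members of each gene list (%) called higher (red, to the right) or lower (blue, to the left) at the base at 1 dpi, with the number tested in parentheses. Dotted lines mark the shares over all annotated targets, 7.27% higher and 14.8% lower. The calcium list reached furthest to the left, with 18 of 39 members.

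Hormone and root development genes were described through 34 targets that the study lists for adventitious rooting, of which 6 rose and 4 fell (5 and 6 without replicate 2 of 3 hpi). The study drew this list up on the same samples, so it is no independent evidence of a direction. Auxin response factor ARF6 (reCj18826), an activator that promotes rooting in Arabidopsis, was 1.13, 1.75 and 1.07 at 3 hpi and -0.48, -0.75 and -0.32 at 1 dpi, a difference of -1.83 (standard error 0.39, adjusted p = 0.000512). Its base level was 1.30 ± 0.47 (SD, n = 3) at 0 hpe and -1.67 ± 0.51 at 1 wpi, lower at 1 wpi than before the cut. An ARF2 target (reCj18596) fell, from a mean of -1.77 to -3.27, and an ARF19 target (reCj17903) rose by 1.01, below 1 without 3 of the 6 arrays (0.78 to 0.99). Auxin efflux carriers of the PIN family rose, EIR1 (reCj20172) by 1.49 and PIN3 (reCj18758) by 1.45. PIN3 was -2.95, -0.97 and -2.69 and then -0.98, -2.01 and 0.72, with overlapping arrays, and it lost its call without 4 of the 6 arrays (adjusted p 0.0622 to 0.386) and with quantile and normexp values. EIR1 lost its call without replicate 2 of 3 hpi (1.22, adjusted p 0.0574) or replicate 3 of 1 dpi (1.25, adjusted p 0.0615). Among all 29 auxin targets, 4 rose and 7 fell (5 and 6 without replicate 2 of 3 hpi), with 2 auxin-responsive family proteins (reCj28744 and reCj24648) at the lower end and a SAUR-like protein (reCj28650) at the upper end.

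Among GRAS factors, the 2 SCARECROW-like SCL1 targets moved in opposite directions. The first (reCj19040) was 3.25, 3.69 and 3.36 and then 1.44, 1.76 and 1.76, and the second (reCj19489) 0.36, -0.16 and 0.29 and then 1.92, 2.09 and 1.80. The differences were -1.78 and 1.78 (standard errors 0.28 and 0.23). SHORT-ROOT targets did not pass the test (reCj24821, 0.13, and reCj23597, -0.17), nor did SCARECROW (reCj20794, 0.95, adjusted p 0.100). Of 8 ethylene targets, 2 rose, EFE and a 2-oxoglutarate and iron dependent oxygenase (reCj31127, 2.39), against 1 without replicate 2 of 3 hpi and none with the slide as a block. The call of reCj31127 was lost without 3 of the 6 arrays (adjusted p 0.0616 to 0.113). An oxygenase target of the study's rooting list with a like hit (reCj26915) went the other way and was not called. It was 4.54, 6.25 and 4.15 and then 2.79, 3.05 and 3.44, a difference of -1.89 (limma adjusted p 0.238). Of 7 cytokinin targets, the response regulator RR1 (reCj18133) fell by 1.43. Of 17 abscisic acid targets, 2 phosphatases 2C that restrain the signal fell (reCj25311, -2.34, and reCj21573, -1.74), and 5 fell and 1 rose without replicate 2.

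Of 10 targets with qRT-PCR primers in the study, ARF6 and aldehyde oxidase AO2 fell and PIN3 rose (3 fell and 2 rose without replicate 2 of 3 hpi). AO2 (reCj18051), of a family that completes hormone aldehydes such as that of abscisic acid, was 1.69, 1.66 and 1.70 at 3 hpi and -0.24, -0.11 and -0.17 at 1 dpi, so its arrays were apart. The study itself ran qRT-PCR on its primer targets, with Ubiquitin as the internal control, and those values were not used here. On the arrays a ubiquitin target, UBQ11 (reCj30170), differed by -1.89 at the base (standard error 0.37, limma adjusted p = 0.000202). Whether the Ubiquitin control moved between these times was not tested. The primer pairs of the 3 called targets are shown, forward and reverse, each written 5′ to 3′.
reCj18826 ARF6 forward: aggtgcctcaatacagagctttg
reCj18826 ARF6 reverse: cagctacctgttcgctatgtcctt
reCj18051 AO2 forward: ggcgtgtacggtcataatatctga
reCj18051 AO2 reverse: aggcctgaggcacgaattc
reCj18758 PIN3 forward: gagccatgatgcgcagaat
reCj18758 PIN3 reverse: tgaggataaggcgcgtcatt

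Some targets were measurable at only 1 of the 2 times and were outside the 12497. For 22 targets no spot was well above background on any 3 hpi array and every spot was at 1 dpi, and for 67 the reverse held. Their change is a bound, the mean of the bright arrays over the mean of the higher of the dim value and the lowest signal well above background on each dim array. The choice of these targets fixes their direction, so no test is given. The largest rise was at least 145-fold (reCj21277), with 1 dpi values of -1.87, 2.97 and 4.84, and the largest fall at least 31.4-fold (reCj29768), with 3 hpi values of 0.62, -1.29 and 1.81. None of the 22 and 7 of the 67 had an annotation, and PRA1.B4 (reCj29097), a protein of vesicle traffic, was at least 2.74-fold lower at 1 dpi.

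The middle of the cuttings addressed whether the change was shared by the aboveground stem. On 12400 targets above background on the base and middle arrays of both times, 236 rose (1.9%) and 459 fell (3.7%) in the middle, 5.6% in all. Of the 970 base rises tested there, 181 rose in the middle and 1 fell, and of the 1061 base falls, 328 fell and none rose. These are 76.7% of the middle rises and 71.5% of the middle falls. The median middle difference was 0.80 for the base rises and -0.87 for the base falls, against 0.02 over all targets. Since the targets were chosen on the base, a smaller middle than base difference is no finding in itself. The middle count rested on single arrays, with 328 called without replicate 1 of middle 3 hpi and 1111 without replicate 3, against 695 with all.

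The difference itself, the base change minus the middle change, was called for 2 of 12400 targets (0.0161%), both falling more at the base, and 1086 targets had an unadjusted p below 0.05. GIGANTEA (GI, reCj17945), a regulator of the circadian clock and flowering, was 1.81, 2.68 and 1.66 at the base at 3 hpi and -0.39, 0.36 and 0.25 at 1 dpi. In the middle it was 2.15, 1.89 and 1.84 and then 1.60, 1.88 and 1.65, so it fell by 1.97 at the base and the middle differed by -0.24 (adjusted p = 0.487). The difference between the parts was -1.73 (standard error 0.31, adjusted p = 0.0196). The level of GI in the middle was 1.78 ± 0.17 (SD, n = 3) at 3 dpi and that at the base -0.26 ± 0.09. Both parts were taken at the same times. The cuttings were excised in the morning and inserted a few hours later the same day, which puts 3 hpi in the afternoon, and the clock time of sampling at 1 dpi is not given in the sources used here. A RING/U-box protein (reCj25016), a likely ubiquitin ligase, fell by 2.18 at the base, from 1.44, 1.59 and 1.18 to -1.29, -0.64 and -0.39, and differed by -0.22 in the middle (adjusted p = 0.585). Its difference between the parts was -1.95 (standard error 0.35, adjusted p = 0.0196).

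Single arrays decided the count of such differences. Both targets lost their call without any 1 of 4 of the 6 middle arrays (adjusted p 0.0813 to 0.129), with quantile normalization (0.0583) and on the 12 arrays alone (0.293), and reCj25016 also without replicate 1 of base 3 hpi (0.0675). Base and middle came from the same 3 cuttings at each time, though the labels do not say that a replicate number is 1 cutting, and with the number as a block that pairs them 34 targets were called, 18 with a more positive and 16 with a more negative change at the base. Without replicate 2 of base 3 hpi, 116 targets were called (0.935%), 90 with a more positive and 26 with a more negative change at the base. They held the thaumatin-like reCj30314 (6.79), LAC1 (5.84), the expansin-like EXLB1 (reCj28313, 5.54) and the GRAS factor reCj24218 (4.93), each rising more at the base, and GI and reCj25016 again. Of these, only GI and reCj25016 were called with all arrays, and the others were picked after their values were seen. The array left out was far above replicates 1 and 3 for reCj30314 (3.79 against -2.33 and -1.70) and for EXLB1 (5.88 against 1.53 and 0.77). The slide cannot be told apart from the part, since the middle arrays lay on slides 7, 8 and 9 alone.

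**Figure D5:**
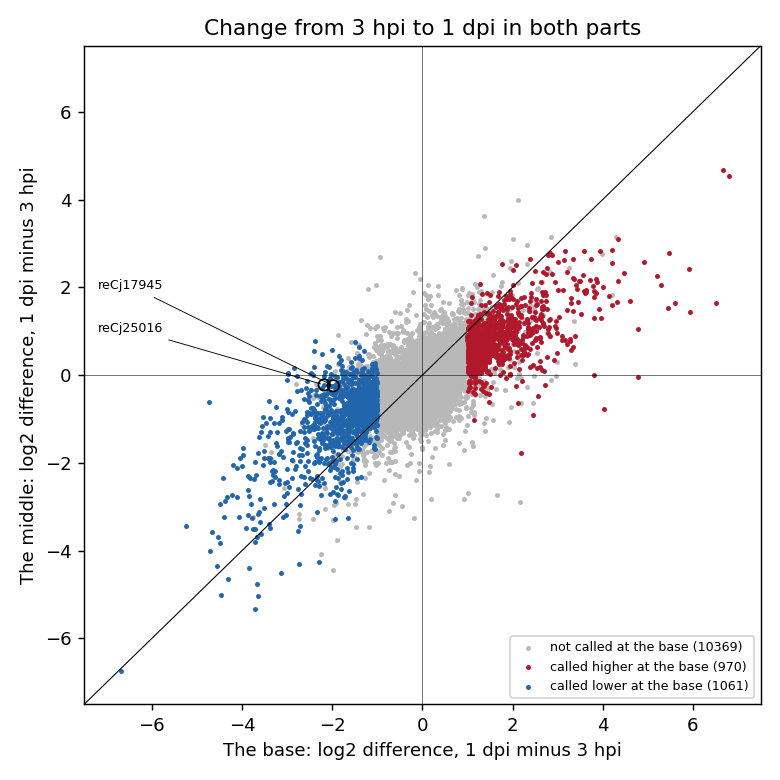
Log2 difference from 3 hpi to 1 dpi at the base (x axis) and in the middle (y axis) for 12400 targets, coloured by the call at the base. The line marks equal change. Circles mark GI (reCj17945) and reCj25016, near -2 at the base and near 0 in the middle.

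Base 3 dpi against 0 hpe gave a reading of the later state. Its difference uses none of the 6 arrays, though these entered its filter and its estimate of the spread. On 10666 targets, 28.2% were called, of which 1743 were higher (16.3% of those tested) and 1266 lower (11.9%) at 3 dpi. With quantile normalization 1377 were higher and 1534 lower, so the balance of directions depended on the scaling. Of the 893 base rises tested, 346 were higher at 3 dpi than before the cut (38.7%) and 75 lower (8.4%), with a median of 0.64 against 0.11 over all targets. Of the 806 base falls, 193 were lower (23.9%) and 143 higher (17.7%), with a median of -0.10. The rises thus held more higher calls than all targets tested (38.7% against 16.3%) and fewer lower calls (8.4% against 11.9%), whereas the falls held more lower calls (23.9% against 11.9%) and a share of higher calls near the background (17.7% against 16.3%).

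Single targets showed each course. The GRAS factor reCj24218 was 4.96 higher at 3 dpi than at 0 hpe, the invertase reCj21279 6.23 higher, the AP2/ERF factor reCj23720 7.20 higher and the oxygenase reCj26574 8.07 higher (adjusted p from 8.94e-09 to 4.77e-06). PG1 (reCj14728) was -7.67 and the ankyrin hit reCj20413 -4.66 on the same scale (adjusted p = 1.00e-07 and 1.57e-08), lower after 3 days as after 1. AMT2 (reCj22883) was 1.84 higher (adjusted p = 0.00953), while reCj24181 differed by -0.04 (adjusted p = 0.955) and GI by 0.00. PAL1 (reCj33281) was 3.53 higher at 3 dpi than at 0 hpe (adjusted p = 0.00430), from -2.68 ± 0.60 (SD, n = 3) to 0.85 ± 0.38. Of the calcium list, 6 of 38 members were higher and 3 lower in this comparison, and of the AP2/ERF list 14 of 25 were higher and 3 lower. Over all targets tested in it, 16.3% were higher and 11.9% lower.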

How the data were processed

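RNA of cutting bases and middles was labelled with Cy3 and hybridised to a custom 1-colour Agilent array with 3 to 4 spots per target. The authors deposited spot intensities from Agilent Feature Extraction 11.5, background-subtracted and not scaled between arrays, and a table of log2 values scaled to the 75th percentile of each array. Here the unflagged spots of a target were averaged, log2 was taken and the 75th percentile of the array subtracted. With all spots of a target averaged instead, the differences of each array from the first departed from those in the deposited log2 table by at most 0.00526. The 24 columns of needle samples in that table were not used. Signal over background and the number of arrays limit the precision.

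All 48 base and middle arrays (16 groups of 3) entered 1 limma fit (3.58.1, R 4.3.3; lmFit and eBayes, no block), tested on simulated data. P-values were adjusted by Benjamini-Hochberg over the targets tested. The filter (no non-uniform spot, all spots well above background, mean signal above 10) was read on the arrays of each comparison, for base 3 dpi against 0 hpe also on those at 3 hpi and 1 dpi. Alternatives changed the arrays fitted, background correction, normalization, filter, spots averaged, source of values, slide, pairing, fold threshold and left-out arrays. Normexp (offset 50) used median in place of mean spot signals.

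Named were the 12 largest rises and falls with an annotation and 2 without among targets with arrays apart, up to 4 per direction in each list, called targets and hormone genes of the study's root gene and primer tables, and the called base against middle differences. Targets named outside this are marked as chosen after their values were seen. The members and lists were chosen with earlier results of these data known. The pathogenesis list was corrected after values were seen, to drop xyloglucan endotransglucosylases. Summed levels add the linear signals of a list's tested targets.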

Additional observations from a re-analysis of the deposited data

Results flagged for a closer look

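A difference between the parts of the cutting in the change from 3 hpi to 1 dpi was found by its own test for 2 targets. For GI (reCj17945) the base change minus the middle change was -1.73 on the log2 scale (standard error 0.31, limma adjusted p = 0.0196), and each of the 3 bases at 1 dpi was below each base at 3 hpi. For the RING/U-box protein reCj25016 it was -1.95 (standard error 0.35, limma adjusted p = 0.0196), with the bases likewise apart. Without replicate 2 of base 3 hpi the differences were -1.41 and -1.86 (adjusted p 0.0104 and 0.00964). Both calls were lost without any 1 of 4 of the 6 middle arrays (adjusted p 0.0813 to 0.129), with quantile normalization (0.0583) and on the arrays compared alone (0.293), and that of reCj25016 also without replicate 1 of base 3 hpi (0.0675).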

How the results depend on the processing

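The 2050 calls at the base stayed between 1506 (normexp) and 2565 (filter read on 1 group) under the alternatives other than that without a fold threshold, which gave 4073. With the slide as a fixed block 1619 were called, and 1692 to 2138 with each array left out in turn. For the base change minus the middle change, 2 targets were called in the reported fit, 0 on the arrays compared alone, 0 with quantile normalization, 4 with normexp, 10 on the targets of list 1, which pass the filter on all 48 arrays, and 0 to 116 with each array left out. The middle gave 341 calls on the arrays compared alone, where fewer arrays estimate the spread, and 328 to 1111 with each array left out. Base 3 dpi against 0 hpe gave 7189 calls without the filter, against 3009. No named target that was called changed sign under an alternative, while targets that were not called and lay near 0, such as both SHORT-ROOT targets, did. The balance of directions did change. At the base, 975 rose and 1075 fell, against 882 and 816 with quantile normalization, 832 and 787 with the slide block and 827 and 739 on list 1. For base 3 dpi against 0 hpe the median over all targets was 0.11, and -0.02 with quantile normalization. List medians near 0 (heat shock, ubiquitin, detoxification, wall loosening, clock and light) also changed sign. The cause of these shifts was not tested.

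Deviations of same-numbered arrays from their group means correlated between -0.57 and 0.58 across base 3 hpi and 1 dpi, which are different cuttings. Those of differently numbered arrays correlated between -0.62 and 0.61. Between base and middle, same-numbered arrays correlated between -0.13 and 0.25 at 3 hpi and between -0.02 and 0.21 at 1 dpi. Differently numbered ones correlated between -0.30 and 0.24 at 3 hpi and between -0.24 and 0.18 at 1 dpi. Whether equal numbers are 1 cutting thus stayed unsettled. With the replicate block, 2045 targets were called at the base, 687 in the middle, 3011 in base 3 dpi against 0 hpe and 34 for the base change minus the middle change. Dim targets are limited by signal over background, and each group by its 3 arrays.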
